A study of Mus musculus with 8 samples.

Results

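Osteoclasts dissolve bone mineral with acid and digest its matrix with proteases. The genes described here are those of that machinery: the proton pump, the chloride and bicarbonate exchange that goes with it, the hydrolases delivered to the resorption pit, and the proteins that carry lysosomes to the plasma membrane. They were chosen by name, as every row whose symbol starts with Atp6v or Atp6ap, together with *Tcirg1*, *Clcn7*, *Ostm1*, *Car2*, *Ctsk*, *Acp5*, *Snx10*, *Plekhm1*, *Slc4a2*, *Rab7*, *Rab38*, *Lamp1*, *Lamp2*, *Ctsb* and *Ctsd*. The rule found 36 of the 19201 rows of the count table, and 34 of these were among the 15318 genes with enough counts to be tested. The measured expression values played no part in the choice of the names, although earlier results of these data were known when it was made.

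RNA-seq libraries had been made from ground cortical bone of C57BL/6J mice at 6 weeks of age, with 4 libraries from *Prx1*Cre; *Piezo1*fl/fl mice (Piezo1-deficient) and 4 from WT mice, numbered 1, 3, 4 and 5 in each genotype. PIEZO1 is a mechanically gated cation channel, and *Prx1*Cre acts in the limb mesenchyme that gives rise to osteoblasts and osteocytes, not in the blood lineage from which osteoclasts form. The labels give the WT animals no allele, do not name their sex, and do not say whether each library is a separate animal, so the p-values measure the spread between these libraries. *Piezo1*, the targeted gene, had 146, 140.1, 131 and 136 CPM in the Piezo1-deficient libraries, against 194, 213, 199 and 214 CPM in the WT libraries (log2 fold change −0.57, SE 0.06, adjusted p = 0.00270). CPM here is the count of a gene scaled to the library size after edgeR's TMM normalisation, and every adjusted p is from edgeR's quasi-likelihood test with Benjamini-Hochberg adjustment over all 15318 genes. The libraries held 11963536 to 14536106 counts. The first principal component of all tested genes, with 42.2% of the variance, separated the genotypes, and Piezo1-deficient library 1 stood apart from the other 7 on the second, with 22.7%.

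In a resorbing osteoclast, lysosomes fuse with the membrane that faces the bone and form the ruffled border. The vacuolar proton pump (V-ATPase) sits in that border. Its cytosolic V1 sector hydrolyses ATP and its membrane V0 sector moves the protons. Carbonic anhydrase II supplies the protons, the chloride-proton exchanger CLC-7 with its partner OSTM1 balances the charge, and the basolateral exchanger AE2 (*Slc4a2*) removes bicarbonate. Cathepsin K, secreted into the acid pit, cleaves collagen. Loss of *Tcirg1*, *Clcn7*, *Ostm1*, *Snx10*, *Plekhm1* or *Car2* function is known to cause osteopetrosis, in which bone is made but not resorbed. Most pump and lysosome genes are used by every cell, whereas *Tcirg1*, *Atp6v0d2*, *Ctsk* and *Acp5* are known for their high level in osteoclasts. In whole bone, fewer osteoclasts, less RNA per osteoclast and a different mix of other cells cannot be told apart. For mice of this genotype at the same age, the study reported more osteoclasts, more eroded surface and higher serum CTX-I than in WT mice. Those were measured in male mice, on sections of the proximal tibia and in serum, not on this RNA. The study's TRAP staining showed the added osteoclasts along trabecular bone, whereas the RNA here is from cortical bone and its labels name no sex.

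Many lysosomal genes carry the CLEAR element, an E-box with core TCACGTG that TFEB, TFE3 and MITF bind, so the promoters of the members were read for it. RefSeq promoter windows (GRCm38.p6, 250 bases before to 50 bases after the start site) were matched for 26 of the 36 members, 37 windows in all. TCACGTG, on either strand, was in at least 1 window of 7 of these 26 members (26.9%): *Atp6v1a*, *Atp6v0b*, *Atp6v0d1*, *Atp6v0e*, *Clcn7*, *Ctsd* and *Lamp1*. Of all 27025 genes with a window, 4.29% had a match. No window was matched for *Atp6v1b2*, *Atp6v1c1*, *Atp6v1g1*, *Atp6v1h*, *Atp6v0a2*, *Atp6v0d2*, *Atp6v0c-ps2*, *Car2*, *Ctsb* and *Rab38*. The stretch from 150 bases before to 20 bases after the start is shown for 2 members that fell in Piezo1-deficient bone and carry the core (*Atp6v1a*, chr16:44139240-44139409, minus strand, and *Clcn7*, chr17:25133241-25133410, plus strand), and for 2 that carry it and were not lower (*Lamp1*, chr8:13159011-13159180, plus strand, and *Atp6v0d1*, chr8:105566045-105566214, minus strand). Capitals mark the matches, 5′ to 3′ on the gene's strand, and an 8-base run is a pair of overlapping matches, 1 on each strand.
Atp6v1a: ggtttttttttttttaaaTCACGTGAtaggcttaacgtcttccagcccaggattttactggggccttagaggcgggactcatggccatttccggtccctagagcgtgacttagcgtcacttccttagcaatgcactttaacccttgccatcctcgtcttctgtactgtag
Clcn7: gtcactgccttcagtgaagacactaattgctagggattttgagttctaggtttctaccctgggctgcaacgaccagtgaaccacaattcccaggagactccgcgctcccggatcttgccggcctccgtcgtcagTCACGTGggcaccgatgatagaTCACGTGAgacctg
Lamp1: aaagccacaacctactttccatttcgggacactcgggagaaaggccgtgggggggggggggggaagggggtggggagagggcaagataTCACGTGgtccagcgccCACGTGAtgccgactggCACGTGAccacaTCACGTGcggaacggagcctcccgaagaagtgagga
Atp6v0d1: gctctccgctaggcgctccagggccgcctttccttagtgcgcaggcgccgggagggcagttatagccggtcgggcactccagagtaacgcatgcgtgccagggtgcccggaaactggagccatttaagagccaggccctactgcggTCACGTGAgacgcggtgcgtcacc
The first bases of the matches lay at −132 and −131 in *Atp6v1a*, at −16, 7 and 8 in *Clcn7*, at −62, −45, −28 and −16 in *Lamp1*, and at −4 and −3 in *Atp6v0d1*, counted from 1 at the start site, with negative positions before it. *Clcn7* has another RefSeq window, which held no match. The related MITF box TCATGTG was in 3 of the 26 members (11.5%; *Acp5*, *Atp6v0c* and *Clcn7*), against 4.31% of all genes. The AP-1 motif TGANTCA was in 2 members (7.69%, against 8.97% of all genes), and AGGAAGT, a core read by ETS factors such as PU.1, was also in 2 (7.69%, against 10.7%). A match is a description of the letters, not a site of binding.

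The members were lower on the whole in Piezo1-deficient bone, by small amounts. Of the 34 tested, 26 had a lower mean (76.5%), against 48.9% of all genes tested, and the median log2 fold change was −0.17, against 0.00 for all genes. In 5 members the fall passed the test: *Atp6v1a* and *Atp6v1c1* of the pump, the chloride-proton exchanger *Clcn7*, and the traffic proteins *Plekhm1* and *Rab38*. This is 14.7% of the members, against 0.973% of all genes called lower, and no member was called higher, against 2.04% of all genes (3.02% of all genes were called in either direction). At an unadjusted p under 0.05, 16 members were lower and 2 higher, against 7.89% and 10.5% of all genes. The values of the 2 genotypes did not overlap for 14 members that were lower and 1 that was higher (*Lamp1*), against 5.27% and 6.65% of all genes. The 5 calls lay close to the threshold, with adjusted p between 0.0326 and 0.0481, and the DESeq2 Wald test called 10 members lower and 1 higher, against 2.35% and 3.88% of all genes. Without Piezo1-deficient library 1, 10 members were called lower, among them these 5, against 1.75% of all genes. Without WT library 1, 2 were (*Atp6v1a* and *Plekhm1*, against 0.980% of all genes), without Piezo1-deficient library 5, 1 was (*Atp6v1c1*, against 0.686%), and without Piezo1-deficient library 4, 1 was (*Acp5*, not one of the 5, against 0.511%). No member was called lower without Piezo1-deficient library 3 (0.608% of all genes) or without WT library 3, 4 or 5 (0.315% to 0.362%).

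**Figure D1:**
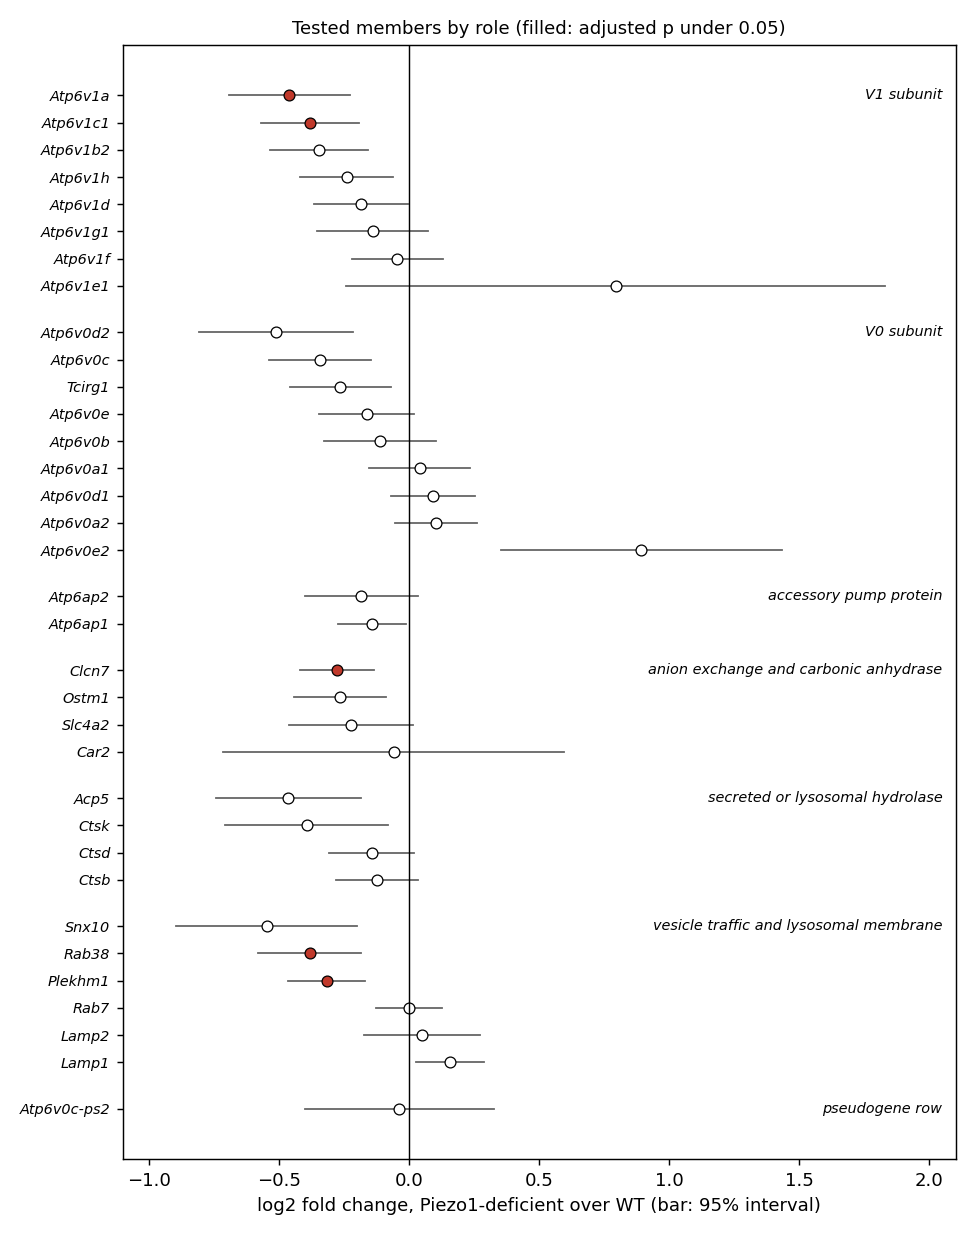
Log2 fold change (Piezo1-deficient over WT) of each of the 34 tested members, grouped by role. Points are the edgeR estimates, bars are 95% intervals, and filled points are the 5 members called at an adjusted p under 0.05. Of the 34 points 26 lie left of 0, and the estimates run from −0.55 (*Snx10*) to 0.89 (*Atp6v0e2*).

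Beside the counts of each role, here and below, stand the shares of all genes, of which 0.973% fell and 2.04% rose. At an unadjusted p under 0.05 in edgeR 7.89% of all genes were lower and 10.5% higher, and DESeq2 called 2.35% lower and 3.88% higher. The V1 sector held 8 tested members, of which 2 fell and none rose (median log2 fold change −0.21). *Atp6v1a*, the catalytic A subunit (mm9 chr16:44085515-44139818), had 159, 162.5, 164 and 125 CPM in the Piezo1-deficient libraries, against 179, 213, 228 and 219 CPM in the WT libraries. No Piezo1-deficient library reached the lowest WT library, and library 5 was the lowest of all 8. The means were 152 ± 18.7 CPM in Piezo1-deficient bone and 209.7 ± 21.6 CPM in WT bone (SD, n = 4 each; log2 fold change −0.46, SE 0.10, adjusted p = 0.0430). *Atp6v1c1*, the C subunit that clamps V1 onto V0 (mm9 chr15:38591659-38622198), had 82.2, 75.0, 78.5 and 62.2 CPM in the Piezo1-deficient libraries, against 96.7, 97.6, 101 and 92.6 CPM in the WT libraries. The genotypes again did not overlap, with means of 74.5 ± 8.67 CPM in Piezo1-deficient bone and 97.0 ± 3.44 CPM in WT bone (log2 fold change −0.38, SE 0.09, adjusted p = 0.0418). *Atp6v1b2*, the B subunit that alternates with A in the ATP-hydrolysing ring, had 277, 237, 268 and 215 CPM in the Piezo1-deficient libraries, against 301, 322.5, 320.1 and 325 CPM in the WT libraries. It did not overlap between genotypes and lay just outside the threshold by edgeR (log2 fold change −0.35, SE 0.08, adjusted p = 0.0556). The DESeq2 Wald test called *Atp6v1b2* lower (adjusted p = 0.00379).

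Of the other V1 members, *Atp6v1h*, a regulatory subunit, also did not overlap (log2 fold change −0.24, SE 0.08, adjusted p = 0.139). *Atp6v1d*, *Atp6v1g1* and *Atp6v1f*, subunits of the stalks, had log2 fold changes of −0.18, −0.14 and −0.04 and overlapped between genotypes. *Atp6v1e1*, the E subunit of the peripheral stalk, had 7.36, 10.7, 37.9 and 7.83 CPM in the Piezo1-deficient libraries, against 7.92, 9.47, 9.84 and 9.84 CPM in the WT libraries. Its positive log2 fold change of 0.79 (SE 0.47, adjusted p = 0.404) rests on Piezo1-deficient library 4, and without that library it was −0.10. The row was also low for a core subunit: it had 7.70 CPM per kb of exon in WT bone, whereas the other tested V1 members had 25.7 to 131 CPM per kb. *Atp6v1c2*, an alternative C subunit, had too few counts to be tested.

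In the V0 sector none of 9 tested members passed the edgeR test (median log2 fold change −0.11). At an unadjusted p under 0.05, 3 were lower and 1 higher, against 7.89% and 10.5% of all genes. The DESeq2 Wald test called 2 lower (*Atp6v0c* and *Atp6v0d2*) and 1 higher (*Atp6v0e2*), against 2.35% and 3.88% of all genes. *Tcirg1*, the a3 subunit that places the pump in the ruffled border, had 259, 249, 287 and 212 CPM in the Piezo1-deficient libraries, against 293.5, 309.6, 293 and 314 CPM in the WT libraries. The highest Piezo1-deficient library lay just under the lowest WT library (log2 fold change −0.26, SE 0.09, adjusted p = 0.139). *Atp6v0d2*, the d2 subunit, which in mice also takes part in osteoclast fusion, had 142, 126, 153 and 95.6 CPM in the Piezo1-deficient libraries, against 158, 187, 200.5 and 191 CPM in the WT libraries. It did not overlap either, with means of 129 ± 25.0 CPM in Piezo1-deficient bone and 184 ± 18.3 CPM in WT bone (SD, n = 4 each; log2 fold change −0.51, SE 0.13, adjusted p = 0.0692). Their broadly expressed paralogs had positive estimates that did not pass the test: 0.04 for *Atp6v0a1*, 0.10 for *Atp6v0a2* and 0.09 for *Atp6v0d1* on the log2 scale.

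As shares of each subunit's paralogs, on CPM per kb, the osteoclast form of subunit d was a smaller part in Piezo1-deficient bone than in WT bone. *Atp6v0d2* made up 48.3%, 47.5%, 49.7% and 40.1% of the d subunits in the Piezo1-deficient libraries, against 51.5%, 56.6%, 59.4% and 60.6% in the WT libraries. The shares did not overlap. Per kb, *Atp6v0d1* was the more abundant d subunit in all 4 Piezo1-deficient libraries and the less abundant one in all 4 WT libraries. Which of them is the more abundant rests on the mm9 exon lengths used, 2.72 kb for *Atp6v0d2* and 1.79 kb for *Atp6v0d1*. In CPM not divided by length, *Atp6v0d2* exceeded *Atp6v0d1* in every library of both genotypes. *Tcirg1* made up 68.7% ± 4.21 of the a subunits in Piezo1-deficient bone and 73.7% ± 1.20 in WT bone (SD, n = 4 each), and these shares overlapped. *Atp6v0a2* held 19.3% ± 1.98 of the a subunits in Piezo1-deficient bone and 16.0% ± 1.33 in WT bone, and *Atp6v0a1* 11.8% ± 2.21 and 10.1% ± 0.415. *Atp6v0a4*, the a4 subunit of kidney, was too low to be tested and held 0.124% of the a subunits in Piezo1-deficient bone and 0.135% in WT bone. These shares were not tested between genotypes.

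**Figure D2:**
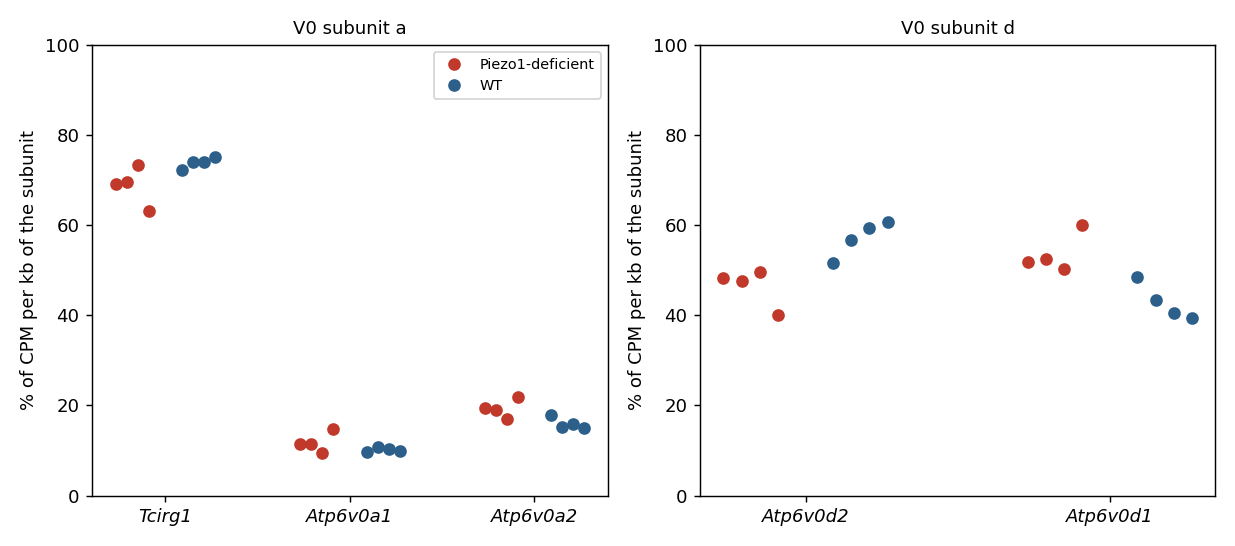
Share of each paralog (%) in the summed CPM per kb of V0 subunit a (left) and V0 subunit d (right), 1 point per library, Piezo1-deficient libraries left of WT libraries. *Tcirg1* dominated subunit a in both genotypes, and the *Atp6v0d2* share was 40.1% to 49.7% in Piezo1-deficient bone, below the 51.5% to 60.6% of WT bone.

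*Atp6v0c*, the proteolipid that forms most of the proton-carrying ring, had means of 97.4 ± 12.1 CPM in Piezo1-deficient bone and 123.5 ± 5.17 CPM in WT bone and did not overlap between genotypes (log2 fold change −0.34, SE 0.09, adjusted p = 0.0656). A pseudogene row, *Atp6v0c-ps2*, may share reads with it and had a log2 fold change of −0.04. *Atp6v0b*, a further ring subunit, and *Atp6v0e*, a small membrane subunit, had log2 fold changes of −0.11 and −0.16. *Atp6v0e2*, the alternative e subunit, was the exception in direction, with 3.38, 3.69, 2.93 and 1.83 CPM in the Piezo1-deficient libraries, against 1.96, 1.60, 1.36 and 1.48 CPM in the WT libraries. It was the member with the largest positive estimate, 0.89 on the log2 scale (SE 0.24, adjusted p = 0.0804), at a level near the lower limit of the test, and it was 5.66% ± 1.65 of the e subunits in Piezo1-deficient bone and 2.83% ± 0.641 in WT bone. Of the accessory proteins of the pump, *Atp6ap1* did not overlap (log2 fold change −0.14, SE 0.06, adjusted p = 0.222). *Atp6ap2*, also known as the prorenin receptor, had 99.2, 97.0, 111 and 84.2 CPM in the Piezo1-deficient libraries, against 99.9, 102.5, 122 and 120.1 CPM in the WT libraries and overlapped between genotypes (log2 fold change −0.18, SE 0.10, adjusted p = 0.351).

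The 19 tested genes of the pump and its accessory proteins summed to 2237, 2093, 2401 and 1943 CPM in the Piezo1-deficient libraries, against 2413, 2560, 2615 and 2527 CPM in the WT libraries. The sums did not overlap, and the Piezo1-deficient mean was 14.2% lower. The sums of all 36 members did overlap, with 8302 to 10810 CPM in the Piezo1-deficient libraries and 10710 to 12270 CPM in the WT libraries. So did the sums of the hydrolases, of the exchange and carbonic anhydrase genes, and of the traffic and lysosomal membrane genes. Of the 19 pump genes, 2 fell and none rose, against 0.973% and 2.04% of all genes. At an unadjusted p under 0.05, 9 were lower and 1 higher, against 7.89% and 10.5% of all genes. Gene by gene, 8 did not overlap, all of them lower, against 5.27% of all genes.

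Of the 4 genes that supply protons or move chloride and bicarbonate, 1 fell. *Clcn7* (mm9 chr17:25270336-25299049) had 95.8, 89.4, 93.2 and 82.9 CPM in the Piezo1-deficient libraries, against 107, 109.5, 113 and 108 CPM in the WT libraries. All 4 Piezo1-deficient libraries were below all 4 WT libraries, with means of 90.3 ± 5.58 CPM in Piezo1-deficient bone and 109 ± 2.58 CPM in WT bone (SD, n = 4 each; log2 fold change −0.28, SE 0.06, adjusted p = 0.0455). *Ostm1*, the β subunit that CLC-7 needs for its stability, had 48.2, 46.1, 53.2 and 42.8 CPM in the Piezo1-deficient libraries, against 55.8, 56.1, 62.8 and 54.0 CPM in the WT libraries. It moved by nearly the same amount and did not overlap, but did not pass the test (log2 fold change −0.27, SE 0.08, adjusted p = 0.108). *Slc4a2*, the bicarbonate exchanger, had 160.0, 121, 128 and 115 CPM in the Piezo1-deficient libraries, against 168, 159.6, 147 and 137 CPM in the WT libraries, which overlapped (log2 fold change −0.22, SE 0.11, adjusted p = 0.299). The exons of *Slc4a2* overlap those of *Fastk*, and those of *Ostm1* the gene model Gm15200, in the GENCODE annotation of mm9, and the library kit is not one that marks strand.

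*Car2*, carbonic anhydrase II, varied more between libraries than between genotypes. It had 136, 380.5, 350.1 and 489.9 CPM in the Piezo1-deficient libraries, against 283, 338, 409 and 383 CPM in the WT libraries. The Piezo1-deficient libraries held both the lowest and the highest value of all 8, and the means were 339 ± 148 CPM in Piezo1-deficient bone and 353 ± 55.2 CPM in WT bone (log2 fold change −0.06, 95% interval −0.72 to 0.60, adjusted p = 0.940). The interval is wide enough to hold a fall or a rise as large as that of any member called here. Carbonic anhydrase II is also abundant in red blood cells. The 14 erythroid marker genes in the table (hemoglobins, *Alas2* and others, of which *Hbb-b2* was at 0 in 1 library) summed to 2027, 5903, 4830 and 8381 CPM in the Piezo1-deficient libraries, against 4357, 4551, 5595 and 4698 CPM in the WT libraries, and none of the 13 tested passed edgeR's or DESeq2's test, or an unadjusted p under 0.05 in edgeR. *Car2* ran in the order of the erythroid sum within each genotype: libraries 1, 4, 3 and 5 from low to high in Piezo1-deficient bone and libraries 1, 3, 5 and 4 in WT bone. The part of erythroid RNA in the *Car2* values was not tested. Without Piezo1-deficient library 1 the log2 fold change of *Car2* was 0.20 (adjusted p = 0.482).

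**Figure D3:**
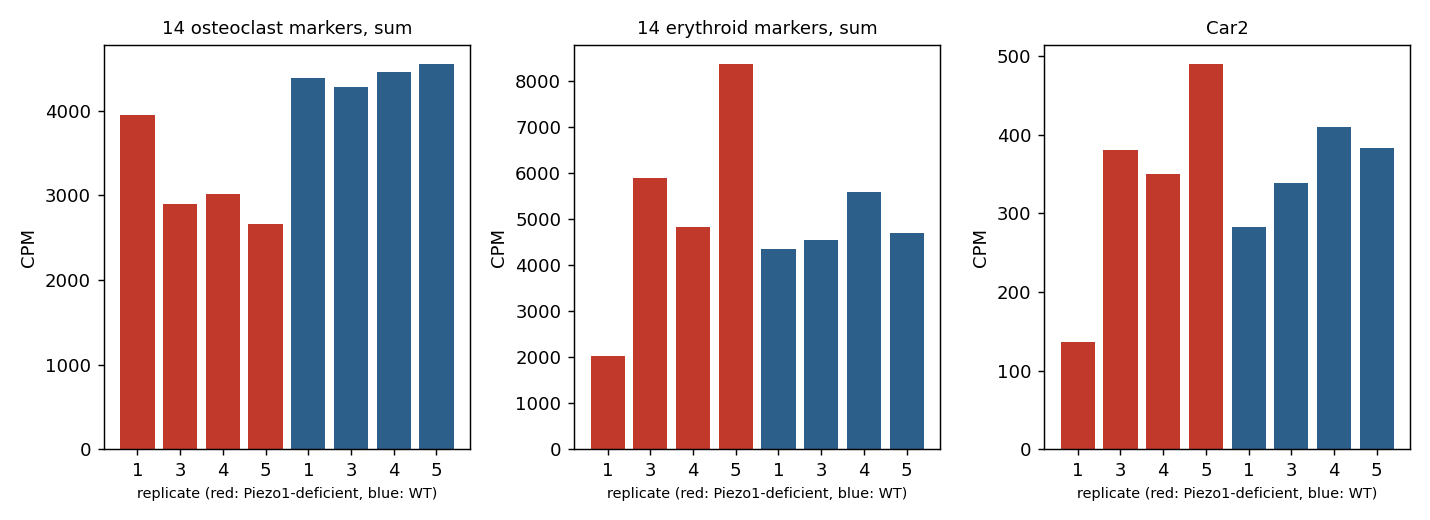
Bars give the CPM in each library (red, Piezo1-deficient replicates 1, 3, 4 and 5; blue, WT replicates 1, 3, 4 and 5) of the sum of 14 osteoclast markers, the sum of 14 erythroid markers and *Car2*. The osteoclast sums of the Piezo1-deficient libraries lie at or below 3952 CPM, under all WT libraries, whereas *Car2* is lowest in Piezo1-deficient library 1, where the erythroid sum is 2027 CPM, and highest in Piezo1-deficient library 5, where it is 8381 CPM.

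The 4 hydrolases were all lower in the mean and none passed the edgeR test, with 2 lower at an unadjusted p under 0.05 and 1 (*Acp5*) called lower by DESeq2. *Ctsk*, cathepsin K, had 2355, 1690, 2404 and 1535 CPM in the Piezo1-deficient libraries, against 2427, 2688, 2768 and 2606 CPM in the WT libraries. Libraries 1 and 4 of the Piezo1-deficient group came close to the lowest WT library, whereas libraries 3 and 5 were far below it (log2 fold change −0.39, SE 0.14, adjusted p = 0.167). *Acp5*, tartrate-resistant acid phosphatase, the enzyme stained to count osteoclasts, had 2272, 2073, 2754 and 1801 CPM in the Piezo1-deficient libraries, against 2731, 3110, 3402 and 3034 CPM in the WT libraries. Piezo1-deficient library 4 exceeded WT library 1, so the groups overlapped, and the means were 2225 ± 402 CPM in Piezo1-deficient bone and 3069 ± 276 CPM in WT bone (SD, n = 4 each; log2 fold change −0.46, SE 0.13, adjusted p = 0.0796). Per kb of exon, these were the most abundant members in both genotypes: *Acp5* had 1380 CPM per kb in Piezo1-deficient bone and 1904 in WT bone, *Ctsk* 1347 and 1769, and *Ctsd*, the next in WT bone, 229 and 253.

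*Ctsb* and *Ctsd* are general lysosomal proteases. *Ctsb* had 838, 876, 926 and 802 CPM in the Piezo1-deficient libraries, against 906, 969.5, 979.5 and 898 CPM in the WT libraries, and the log2 fold change was −0.12 (95% interval −0.28 to 0.03, adjusted p = 0.385). *Ctsd*, the aspartic protease, had 569.5, 593, 614.5 and 529 CPM in the Piezo1-deficient libraries, against 604, 642, 689.6 and 613 CPM in the WT libraries, with a log2 fold change of −0.14 (95% interval −0.31 to 0.02, adjusted p = 0.326). Both overlapped between genotypes, and both intervals include 0 and falls of about the size seen for *Clcn7*. The exons of *Ctsb* overlap those of *Fdft1*, and those of *Ctsd* the row 6330512M04Rik.

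**Figure D4:**
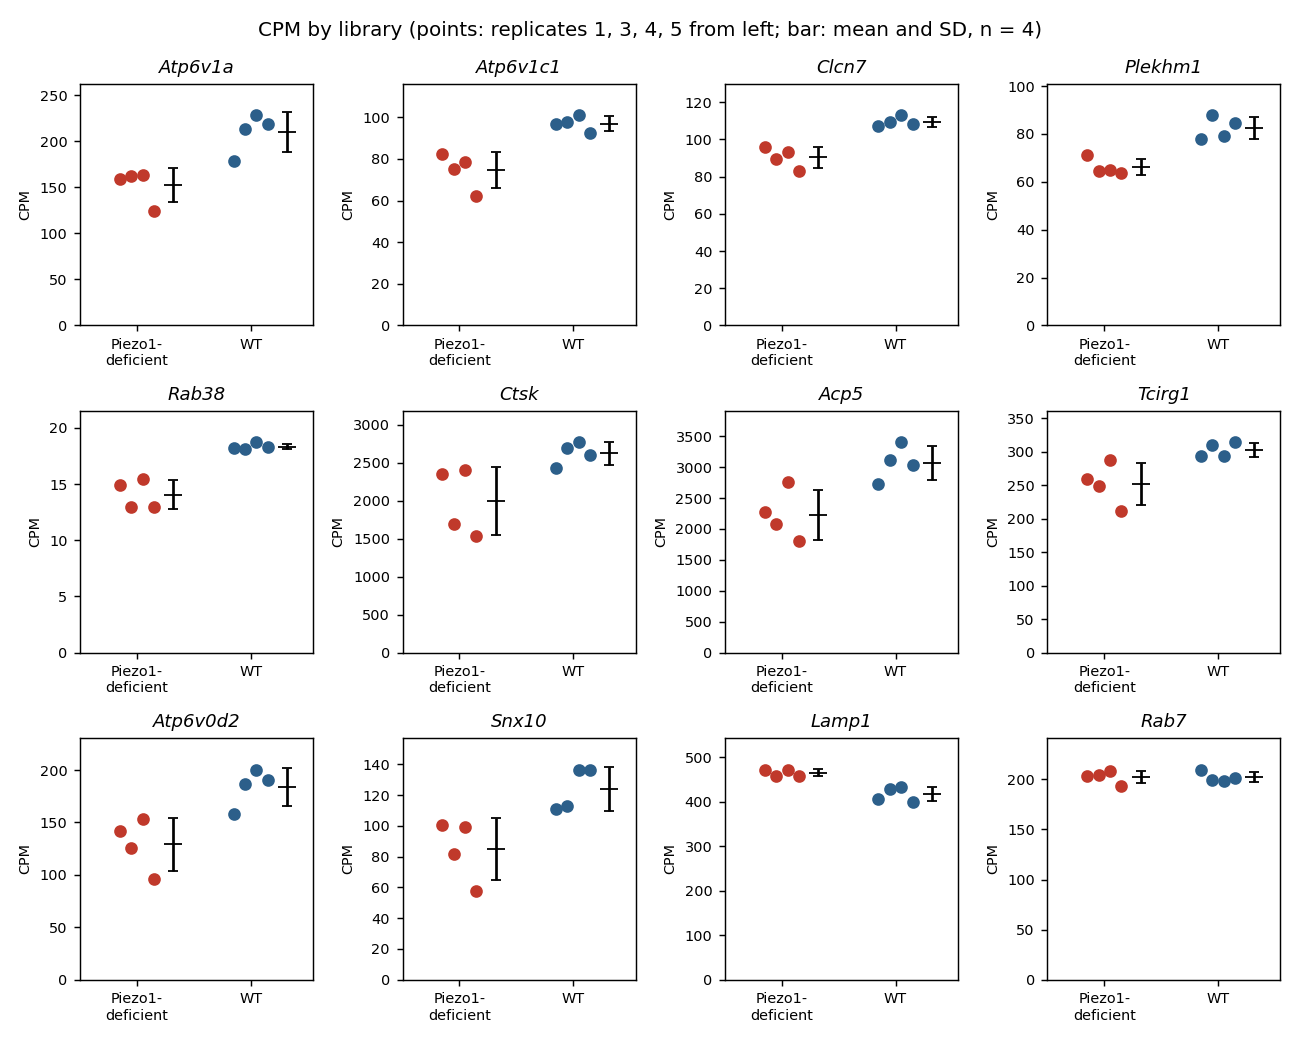
CPM of 12 members in each library on linear axes from 0, with Piezo1-deficient points left of WT points and the mean ± SD beside each group of 4 libraries. The groups do not overlap for 10 of the 12, *Acp5* overlaps at 1 library on each side, and *Rab7* is at the same level in both. The 12 were picked for display. Of all 34 tested members, 14 that were lower and 1 that was higher did not overlap, against 5.27% and 6.65% of all genes.

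Vesicle traffic and the lysosomal membrane held 6 tested members, of which 2 fell and none rose, and this group was split in direction, with 3 estimates below 0. *Plekhm1*, an adaptor that binds RAB7 and brings lysosomes to their fusion partners (mm9 chr11:103226402-103273978), had 71.3, 64.5, 65.1 and 63.6 CPM in the Piezo1-deficient libraries, against 78.0, 87.8, 79.1 and 84.6 CPM in the WT libraries. The groups did not overlap, and the member had the lowest adjusted p of all 34, with means of 66.1 ± 3.48 CPM in Piezo1-deficient bone and 82.4 ± 4.63 CPM in WT bone (SD, n = 4 each; log2 fold change −0.32, SE 0.07, adjusted p = 0.0326). *Rab38*, a small GTPase of lysosome-related organelles (mm9 chr7:95578783-95639976), had 14.9, 13.0, 15.4 and 12.9 CPM in the Piezo1-deficient libraries, against 18.3, 18.1, 18.7 and 18.3 CPM in the WT libraries. The WT values were nearly equal, and all Piezo1-deficient values lay below them (log2 fold change −0.38, SE 0.09, adjusted p = 0.0481). *Snx10*, a sorting nexin needed for the ruffled border, had 100.5, 82.0, 99.2 and 57.6 CPM in the Piezo1-deficient libraries, against 111, 113, 137 and 136 CPM in the WT libraries. Its estimate was the most negative of all members, but the Piezo1-deficient libraries were widely spread, with library 5 lowest. It did not pass the edgeR test (log2 fold change −0.55, SE 0.16, adjusted p = 0.0940), whereas the DESeq2 Wald test called it lower (adjusted p = 0.0176).

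*Rab7*, the late endosomal GTPase to which PLEKHM1 binds, was at the same mean in both genotypes, with 202 ± 6.24 CPM in Piezo1-deficient bone and 202 ± 5.21 CPM in WT bone (log2 fold change 0.00, 95% interval −0.13 to 0.13). *Lamp2*, a glycoprotein of the lysosomal membrane, overlapped (log2 fold change 0.05, SE 0.10, adjusted p = 0.835). *Lamp1*, its homologue, was higher in every Piezo1-deficient library than in any WT library, with 472, 458, 471 and 458 CPM in the Piezo1-deficient libraries, against 407, 429, 432 and 399 CPM in the WT libraries. The difference did not pass the test (log2 fold change 0.16, SE 0.06, adjusted p = 0.185). The exons of *Lamp1* overlap those of *Grtp1*, and those of *Rab7* the gene model Gm5577.

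The order of the libraries recurred across members. Piezo1-deficient library 5 was the lowest of its genotype for 23 of the 34 members, and library 4 the highest for 20. The median member was below the WT mean by 0.17, 0.25, 0.06 and 0.34 on the log2 scale in Piezo1-deficient libraries 1, 3, 4 and 5. In WT bone the same median lay between −0.06 and 0.05, with library 1 lowest for 18 members and library 4 highest for 22. The coefficient of variation of a member had a median of 11.5% in Piezo1-deficient bone and 6.41% in WT bone.

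**Figure D5:**
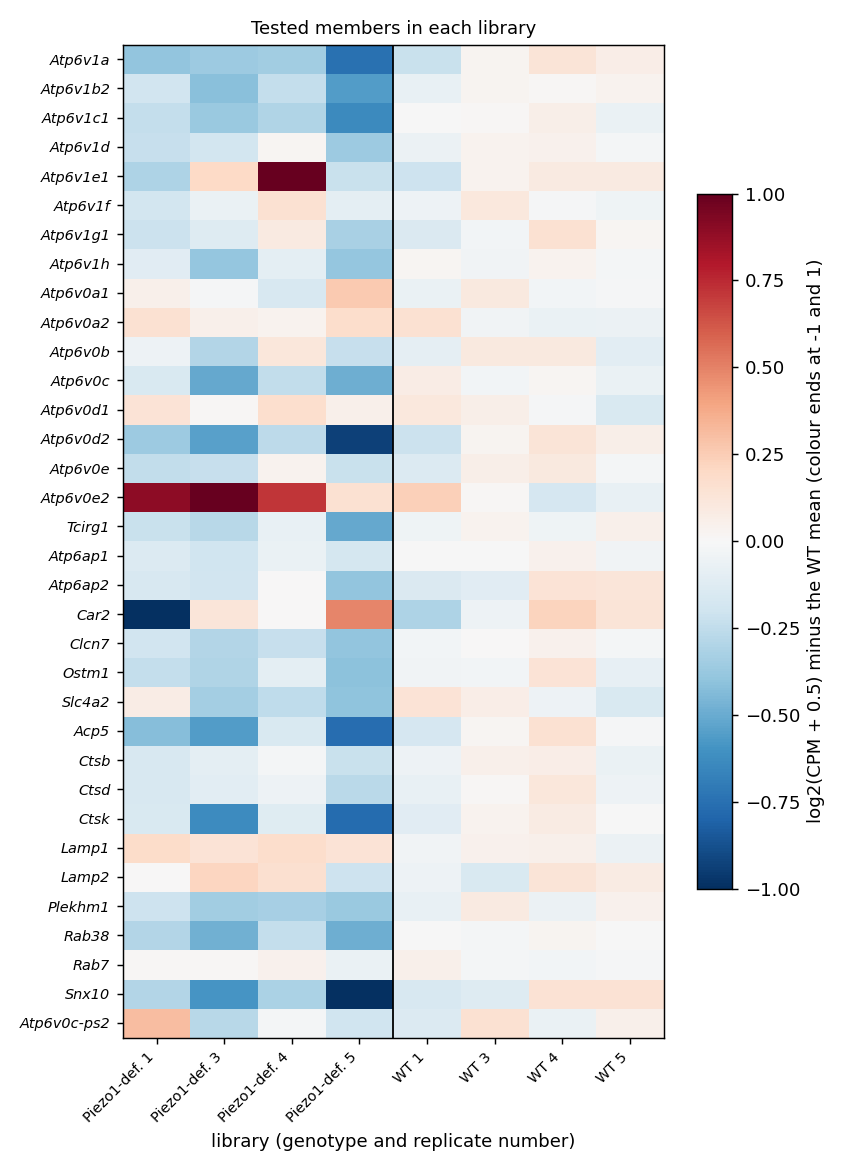
Log2 of each tested member's CPM relative to its WT mean (colour scale) in each library, Piezo1-deficient columns left of WT columns, rows grouped by role. Piezo1-deficient library 5 is the lowest of its genotype for 23 of 34 members, and *Atp6v1e1* in Piezo1-deficient library 4 and *Car2* in Piezo1-deficient library 1 stand out as single cells of the grid.

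Beyond the members, other genes of the lysosome were read from named lists. Beside the counts of these lists stand the shares of all genes, of which 0.973% fell and 2.04% rose. At an unadjusted p under 0.05 in edgeR, 7.89% of all genes were lower and 10.5% higher. Of 47 tested lysosomal hydrolases and their activators outside the set, 3 fell (6.38%) and none rose (median log2 fold change −0.08). At an unadjusted p under 0.05 in edgeR, 14 were lower (29.8%) and 3 higher. The genotypes did not overlap for 11 that were lower and 1 that was higher, against 5.27% and 6.65% of all genes. *Arsb*, arylsulfatase B, was among those that fell (225 ± 19.1 CPM in Piezo1-deficient bone and 331 ± 28.5 CPM in WT bone, log2 fold change −0.56, SE 0.09, adjusted p = 0.00995 by edgeR). So was *Hyal1*, a hyaluronidase (log2 fold change −0.53, SE 0.11, adjusted p = 0.0342 by edgeR). Of 29 genes of the lysosomal membrane and its transport, 2 fell and 1 rose (median 0.05). *Slc37a2*, a sugar-phosphate exchanger abundant in osteoclasts, fell (161 ± 28.9 CPM in Piezo1-deficient bone and 236 ± 13.9 CPM in WT bone; log2 fold change −0.55, SE 0.12, adjusted p = 0.0342), as did *Cd68*, which macrophages also express (log2 fold change −0.42, SE 0.09, adjusted p = 0.0418), and the proton-coupled amino acid carrier *Slc36a1* rose (log2 fold change 0.26, SE 0.06, adjusted p = 0.0464). Of 28 genes of vesicle traffic none passed the edgeR test, 1 was higher and none lower at an unadjusted p under 0.05, and DESeq2 called none. *Rab5c* and *Snx2*, the most abundant of them, had log2 fold changes of −0.04 and −0.13.

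The MiT transcription factors did not pass the test in any of 4 cases by edgeR or DESeq2, with 1 lower at an unadjusted p under 0.05 in edgeR. *Tfe3* and *Tfeb* had log2 fold changes of −0.05 and 0.04. None of 15 assembly and RAVE-like regulators of the pump was past an adjusted or unadjusted p of 0.05 in edgeR or called by DESeq2, with −0.12 for *Dmxl1* and −0.02 for *Lamtor1*. Of 15 other acid-base genes, 1 rose: *Car3*, a carbonic anhydrase of muscle and fat, which had 835 ± 62.7 CPM in Piezo1-deficient bone and 607 ± 35.2 CPM in WT bone (SD, n = 4 each; log2 fold change 0.46, SE 0.08, adjusted p = 0.0141). These shares were not tested against those of the members.

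Cell type markers differed between the genotypes as well. Beside the marker counts, here and below, stand the 0.973% of all genes that fell and the 2.04% that rose. Of 14 osteoclast markers 5 fell and none rose: *Mmp9*, *Itgb3*, *Oscar*, *Ocstamp* and *Siglec15*. The gelatinase *Mmp9* had 1881 ± 429 CPM in Piezo1-deficient bone and 2998 ± 133 CPM in WT bone (log2 fold change −0.67, SE 0.14, adjusted p = 0.0294), and *Itgb3*, the integrin β3 chain with which osteoclasts hold to bone, had 259 ± 10.8 CPM in Piezo1-deficient bone and 349.5 ± 5.32 CPM in WT bone (log2 fold change −0.43, SE 0.06, adjusted p = 0.00520). The sum of the 14 markers, most of it *Mmp9*, was 2658 to 3952 CPM in the Piezo1-deficient libraries, against 4276 to 4550 CPM in the WT libraries. These sums, like those of the pump genes, did not overlap between genotypes, whereas the sums of all 36 members did. Gene by gene, 6 of the 14 markers did not overlap, all of them lower, against 5.27% of all genes. *Oscar*, although it fell, overlapped. The part of these markers in the members' falls was not tested. Of 14 macrophage and monocyte markers, 1 fell (*Csf1r*, the M-CSF receptor, also on osteoclast precursors; log2 fold change −0.45, SE 0.08, adjusted p = 0.0182), with a sum of 1457 to 2065 CPM in the Piezo1-deficient libraries, against 2023 to 2361 CPM in the WT libraries. None of 12 neutrophil markers passed the test by edgeR or DESeq2 (1 was lower at an unadjusted p under 0.05 in edgeR). None of 10 B lineage markers passed it by edgeR, although all 10 were lower at an unadjusted p under 0.05 and DESeq2 called 7 lower, with sums of 208 to 455.5 CPM in the Piezo1-deficient libraries, against 486 to 615 CPM in the WT libraries.

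Markers of other cell types also differed in level. Of 12 osteoblast and osteocyte markers 2 rose (*Bglap* and *Bglap2*), and all 12 had positive estimates. At an unadjusted p under 0.05 in edgeR 6 were higher, against 10.5% of all genes, and DESeq2 called 5 higher, against 3.88%. Their sums, most of them *Col1a1* and *Col1a2*, were 227700 to 324900 CPM in the Piezo1-deficient libraries, against 183900 to 224100 CPM in the WT libraries, without overlap. Of 13 chondrocyte markers 11 fell, with sums of 890.1 to 1070 CPM in the Piezo1-deficient libraries, against 4296 to 7884 CPM in the WT libraries. Of 13 skeletal muscle markers 12 rose, with sums of 529 to 5076 CPM in the Piezo1-deficient libraries, against 28.3 to 189 CPM in the WT libraries. *Myh1*, *Myh2* and *Myh4* were at 0 in WT library 3. Of the 6 tested tendon markers 2 rose, and of 6 adipocyte markers 1 rose. The part of these differences in the members' values was not tested. With the bone matrix genes *Col1a1*, *Col1a2* and *Sparc* left out of the library sizes, 6 members were called lower and none higher, against 1.05% and 1.96% of all genes.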

How the data were processed

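Libraries were made from ground cortical bone with a TruSeq RNA kit, per the labels. The authors deposited 1 table of whole-number counts per gene for 8 libraries. The study's methods name TopHat and mm9, with Cufflinks and Cuffdiff for expression, whereas HISAT2 and GRCm38 appear in the submitters' processing notes, and the counter and its annotation are not given in the sources used here. The deposited table also holds the authors' own log2 fold changes and their p-values and FDR, which were not used.

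Genotypes were compared with edgeR 4.0.16 in R 4.3.3 (TMM normalisation, filterByExpr, quasi-likelihood F test) on all 15318 genes that passed the filter, with Benjamini-Hochberg adjustment and a threshold of 0.05. The script was tested on simulated data. The changes planted there were larger than those of the members called here, so that check does not cover calls of this size. "Rose" and "fell" are used only of genes past that threshold. The SE of a log2 fold change is its size divided by the square root of F. The exact two-sided permutation test over 70 arrangements cannot give a p below 0.0286 with 4 against 4 libraries. CPM per kb used exonic lengths of the GENCODE annotation of mm9, which also gave gene positions, and 35 of the 36 members matched by symbol. Promoters were RefSeq's on GRCm38.p6, and no coordinate was converted between builds. Count-based precision rests on 11963536 to 14536106 counts per library, and intervals are those of the fit.

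Members and lists were chosen with earlier results of these data known. Values in each library are given for members past the threshold and for a fixed set of well-known members, and a few others were added after their values were seen (*Atp6v1e1*, *Atp6v0e2* and *Lamp1*). Of each list of other pathway genes, up to 3 past the threshold, or the 2 most abundant where none was, are named, except for a gene that is not reported here. The cell type markers named were chosen after their values were seen. Alternatives were DESeq2's size factors, DESeq2 1.42.0 itself, no filter, a mean of at least 5 CPM, a replicate block, library sizes that leave out *Sparc* and the collagen I genes, and leaving out each library.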

Additional observations from a re-analysis of the deposited data

Results flagged for a closer look

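In each genotype of 4 libraries, the highest or lowest value of each member with a count of at least 10 there was compared with the other 3 by its gap over the whole range (69 groups in all). A gap above Dixon's critical value marks a library far from the others, which chance gives in about 1 of 20 groups, and 4 were marked. *Atp6v1a* was 125 CPM in Piezo1-deficient library 5, against 159 to 164 CPM in the other 3, and without that library its log2 fold change was −0.38 (adjusted p = 0.0577 by edgeR). *Atp6v1e1* was 37.9 CPM in Piezo1-deficient library 4, against 7.36 to 10.7 CPM in the other 3. *Atp6v0e* was 101 CPM in the same library, against 83.1 to 84.6 CPM in the other 3, and without it the log2 fold change was −0.24. *Atp6v0a2* was 86.5 CPM in WT library 1, against 74.2 to 75.7 CPM in the other 3, and without it the log2 fold change was 0.16.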

How the results depend on the processing

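Against 5 members lower and none higher, DESeq2's size factors and no filter each gave 5 lower and none higher. A mean of at least 5 CPM gave 3 lower (0.924% of all genes), without *Atp6v1a* (adjusted p = 0.0505) and *Rab38* (0.0510) by edgeR. The DESeq2 Wald test gave 10 lower and 1 higher (*Atp6v0e2*), against 2.35% and 3.88% of all genes. The fit with the replicate block gave 8 lower (2.09% of all genes), 4 of them shared with the 5, and *Rab38* was lost (adjusted p = 0.0517). Leaving out 1 library gave 0 to 10 lower and 0 to 1 higher, while the share of all genes called lower was 0.315% to 1.75%. Each of the 5 members kept its call in 1 or 2 of 8 such fits, with adjusted p up to 0.153, and kept its direction in all. Over all alternatives 28 of 34 members kept one sign, and 6, none of them called, did not: *Atp6v1e1*, *Lamp2*, *Atp6v0a1*, *Atp6v0c-ps2*, *Car2* and *Rab7*. Same-numbered libraries had correlations of 0.33, −0.22, 0.17 and −0.01 between their deviations for numbers 1, 3, 4 and 5. The WT library that correlated best had the same number for Piezo1-deficient libraries 1 and 4, and another number for 3 and 5. The labels do not say what the numbers mark, and whether they pair the samples was not tested. With 4 libraries a genotype, the causes of these moves were not tested.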
